A study of Homo sapiens with 6 samples.

Results

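Intermediate filament genes were compared between 2 sorted populations of a breast cancer line. The 10 genes described are 7 keratins (KRT7, KRT8, KRT15, KRT18, KRT19, KRT80 and KRT81), vimentin (VIM) and the nuclear lamins LMNA and LMNB1. They were taken by symbol from a deposited table of 15024 genes, and each symbol matched 1 row. The tested population was CD44+ CD104high MDA-MB-231 cells (n = 3 libraries), and it was set against CD44+ cells with low or absent CD104, called CD104low here (n = 3 libraries). MDA-MB-231 is an established line of triple-negative breast cancer with a mesenchymal appearance, and CD104 is the integrin beta-4 protein, encoded by ITGB4. Cells of both populations were MLL3-null, that is, without the histone methyltransferase encoded by KMT2C, and both had been treated for 14 days before sorting with forskolin at 10 µM, which activates adenylyl cyclase. The sources used here do not say whether the null cells were a single clone. Wild-type cells, which the series' design also names, were not analysed here, so nothing below compares MLL3-null with wild-type cells.

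Intermediate filaments are the rope-like part of the cytoskeleton. Keratins form them in epithelial cells, always as pairs of an acidic type I and a basic type II chain, while vimentin, a type III protein, forms them by itself in mesenchymal cells. Lamins line the inner nuclear membrane, and A-type lamins are commonly more abundant in stiff, spread or differentiated cells than in soft or early ones, whereas B-type lamins occur in nearly all cells. Keratins and vimentin are standard markers when cells are placed between an epithelial and a mesenchymal state, which is the contrast that the series' design draws between these populations.

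Of the 10 genes, 6 were higher in CD104high cells, 1 was lower and 3 did not pass the test. The 6 were KRT80, KRT19, KRT81, KRT18, KRT7 and LMNA, by 1.19-fold to 1.39-fold, and LMNB1 was lower by 1.24-fold. KRT8, KRT15 and VIM did not pass. These counts have to be read against a background in which 43.4% of 14420 tested genes passed in either direction, 21.8% higher and 21.6% lower in CD104high cells. The median log2 fold change of the 10 genes was 0.29, and 0.02 over all tested genes. The median size of the change regardless of sign was 0.33 for the 10 genes and 0.30 over all tested genes, so the changes were about as large as those of other genes. The test was limma with Benjamini-Hochberg adjustment over all tested genes at a threshold of 0.05, on log2(value + 1) of the deposited scaled read counts. The values of the populations did not overlap for 8 of the 10 genes, against 54.3% of all tested genes, with CD104high above for 7, against 27.4%, and below for 1, against 26.9%. All 10 genes passed the filter on low values in every library. In the authors' deposited table the same 7 genes had an adjusted p under 0.05, with the same directions, against 45.7% of the 14732 genes given one there.

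The listed genes received 57975198, 60069719 and 53878182 recovered reads in CD104high libraries and 54969422, 52751808 and 49791498 in CD104low libraries, so counting error was small for all of the 10 genes except KRT15. ITGB4, the gene of the sorting marker, had a scaled count of 15445, 14508 and 19435 in CD104high cells and 1492, 2273 and 1333 in CD104low cells. KMT2C was at 3934, 3561 and 3952 in CD104high cells and 2095, 2611 and 2814 in CD104low cells. A count over the whole gene does not check a deletion within it. Of the markers listed for the line, VIM and CD44 were abundant, and CDH1, ESR1 and PGR are not among the listed genes. Fibroblast markers, 6 of 7 listed, summed to 3770 to 4790 in CD104high cells and 2040 to 2540 in CD104low cells. Of the 4 tested, 3 passed as higher, against 21.8% of all tested genes. Endothelial markers, 3 of 5 listed, summed to 69.6 to 111 in CD104high cells and 55.3 to 99.9 in CD104low cells. CD14 was the only listed leukocyte marker of 6, at 278 to 375 in CD104high cells and 145 to 208 in CD104low cells. Their part in the results below was not tested. In bulk RNA, fewer cells with a transcript and less of it per cell cannot be told apart.

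Shared sequence limits how some of these genes can be measured. KRT81, a type II keratin of the hair cortex, lies on chromosome 12 (GRCh38, 52285913 to 52291534, minus strand), inside the span of KRT86 (52249300 to 52309163, plus strand). Its transcripts share 53.2% of their 31-base words with other genes, 43.2% with KRT86, 18.4% with KRT83, 17.1% with KRT87P and 13.1% with KRT85, which are all hair keratins or their pseudogene. The longest run that the coding sequences of KRT81 and KRT86 share is 605 bases, ending at coding base 665 of KRT81. The stretch of 80 coding bases around that end is shown because it holds the end of the run and the next bases that differ between KRT81 and KRT86. It is taken from GENCODE 29 transcripts, coding bases 626 to 705 in KRT81 and KRT86 and 641 to 720 in KRT83. Sequences run 5′ to 3′, with capitals for bases that differ from KRT81.
KRT81: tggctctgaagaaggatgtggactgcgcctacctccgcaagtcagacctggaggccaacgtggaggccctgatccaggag
KRT86: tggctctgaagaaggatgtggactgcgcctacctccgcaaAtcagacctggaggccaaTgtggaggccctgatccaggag
KRT83: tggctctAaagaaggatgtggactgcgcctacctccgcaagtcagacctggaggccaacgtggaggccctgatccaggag
Across these 80 bases KRT86 differs from KRT81 at 2 positions and KRT83 at 1. Values of a single hair keratin are therefore uncertain, and the sum over the copies is given beside KRT81 below.

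Of the type II keratins, KRT8 was the most abundant, and it did not pass the test. KRT8 is one of the first keratins of the embryo and the main type II chain of simple epithelia (chromosome 12, 52897187 to 52949954, minus strand). Its scaled count was 58503, 57350 and 70452 in CD104high cells and 56085, 51139 and 54036 in CD104low cells. The populations did not overlap, but the gap between the closest libraries was small and replicate 3 of CD104high stood above the rest. The means were 62102 ± 7255 in CD104high cells and 53753 ± 2485 in CD104low cells (SD, n = 3 each), with a log2 fold change of 0.20 ± 0.09 (SE, 95% confidence interval 0.00 to 0.40, limma adjusted p = 0.0937). Without replicate 3 of CD104high the log2 fold change was 0.11. Most KRT8 words that recur elsewhere do so in genes outside the table: 59.5% of its 31-base words occur in other transcripts, 50 of those 60 genes being pseudogenes, and 8.70% in other genes of the table.

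KRT7, a type II keratin of glandular and ductal epithelia that is commonly found in breast, rose 1.25-fold in CD104high cells (chromosome 12, 52232520 to 52252186, plus strand). The libraries held 33861, 35584 and 45951 in CD104high cells and 30798, 29789 and 30627 in CD104low cells. All CD104high libraries lay above all CD104low libraries, and replicate 3 was again the highest. Means were 38465 ± 6540 in CD104high cells and 30405 ± 540 in CD104low cells (SD, n = 3 each), a log2 fold change of 0.33 with an SE of 0.11 (limma adjusted p = 0.0361). The spread was unequal, with a coefficient of variation of 17.0% in CD104high cells and 1.78% in CD104low cells. Without replicate 3 of CD104high the log2 fold change was 0.19 and still passed (adjusted p = 0.0357), but without replicate 1, 2 or 3 of CD104low it did not (adjusted p = 0.0925, 0.0712 and 0.0777). KRT7-AS, an antisense transcript inside KRT7 and chosen here for that position, had 333.2, 302.7 and 303.2 in CD104high cells and 216.2, 239.6 and 207.8 in CD104low cells (log2 fold change 0.50, limma adjusted p = 0.0139). KRT7-AS did not pass after quantile normalization (0.31, adjusted p = 0.0796) or without replicate 1 of CD104high (adjusted p = 0.0631) or of CD104low (0.0523). The sources used here do not say whether reads were counted by strand, so reads of the pair may be mixed.

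KRT81 rose 1.33-fold in CD104high cells. Its scaled count was 21326, 25085 and 26281 in CD104high cells and 16908, 18737 and 18977 in CD104low cells, with no overlap. The log2 fold change was 0.41 ± 0.09 (SE, 95% confidence interval 0.21 to 0.61, limma adjusted p = 0.00631). The sum over KRT81, KRT83, KRT85, KRT86 and KRT87P, which does not depend on how reads were divided between the copies, was 22427, 26497 and 27777 in CD104high cells and 17713, 19776 and 20086 in CD104low cells, also 1.33-fold. KRT81 made up 94.8% of this sum in CD104high cells and 94.9% in CD104low cells. KRT86 (log2 fold change 0.52, adjusted p = 0.0658) and KRT83 (0.36, adjusted p = 0.0719) did not pass in limma with all libraries. Both passed without replicate 1 of CD104high (adjusted p = 0.0457 for KRT86 and 0.0498 for KRT83), and KRT86 passed without replicate 3 of CD104low (0.0357) and in DESeq2 (0.0301).

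KRT80 rose 1.39-fold in CD104high cells. It is a type II keratin of many differentiating epithelia (chromosome 12, 52168996 to 52192000, minus strand). Values were 14614, 14922 and 16986 in CD104high cells and 10436, 10581 and 12390 in CD104low cells. The lowest CD104high library was above the highest CD104low library, and replicate 3 was highest in both populations. The means of 15507 ± 1290 in CD104high cells and 11136 ± 1089 in CD104low cells (SD, n = 3 each) gave a log2 fold change of 0.48 with an SE of 0.09 (limma adjusted p = 0.00302). KRT80 has the longest principal transcript of the 7 keratins, and after correction for transcript length and GC content the log2 fold change was 0.31, which still passed.

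**Figure D1:**
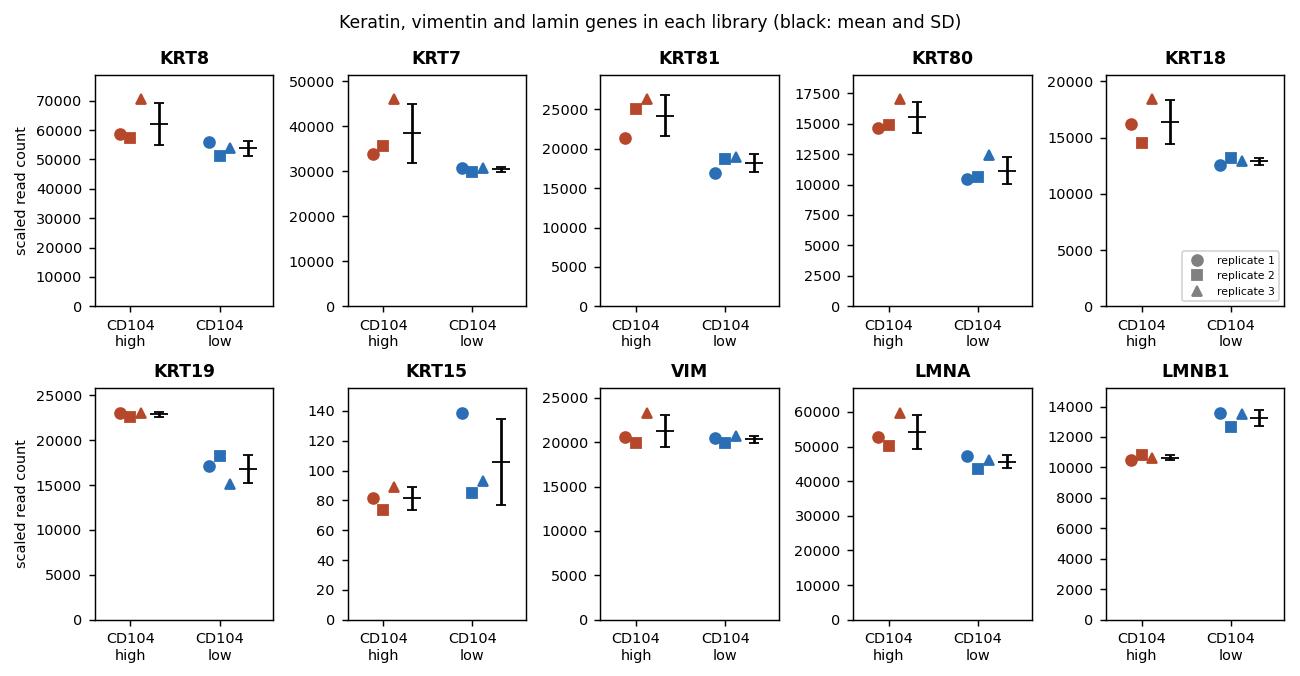
Scaled read count of each of the 10 genes in every library, with CD104high left of CD104low in each panel, points for libraries and bars for the mean with its SD (n = 3 each). CD104high points lie above all CD104low points for KRT7, KRT8, KRT18, KRT19, KRT80, KRT81 and LMNA, below them for LMNB1, and overlap them for KRT15 and VIM.

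Among the type I keratins, KRT18 and KRT19 rose and KRT15 did not pass. KRT18 is the standard partner of KRT8 (chromosome 12, 52948871 to 52952901, plus strand), and it had 16261, 14549 and 18409 in CD104high cells and 12585, 13189 and 12941 in CD104low cells. CD104low libraries lay close together and all below the CD104high ones. KRT18 was 1.27-fold higher in CD104high cells, with a log2 fold change of 0.34 with an SE of 0.08 (limma adjusted p = 0.0122). Without replicate 1 of CD104low the adjusted p was 0.0527. KRT18 has many processed pseudogenes: 66.3% of its 31-base words occur in 66 other genes, 65 of them pseudogenes, and 6.47% in other genes of the table. The KRT8 and KRT18 genes also overlap head to head on opposite strands between 52948871 and 52949954, so reads there could count for either gene.

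KRT19, the shortest keratin, which lacks most of the tail domain and marks ductal and luminal cells, had the smallest adjusted p of the 10 genes (chromosome 17, 41523617 to 41528308, minus strand). It was at 22993, 22581 and 23077 in CD104high cells and 17093, 18209 and 15141 in CD104low cells. CD104high libraries were nearly equal, with a coefficient of variation of 1.16%, against 9.24% in CD104low cells. Its rise was 1.36-fold, a log2 fold change of 0.45 ± 0.07 (SE, 95% confidence interval 0.28 to 0.62, limma adjusted p = 0.00194). Leaving out any 1 library kept the log2 fold change between 0.38 and 0.51 and the call.

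KRT15, a type I keratin of basal keratinocytes and of the hair follicle bulge, was present at a trace (chromosome 17, 41513743 to 41522529, minus strand). Its scaled count was 81.46, 73.25 and 89.22 in CD104high cells and 138.8, 84.93 and 93.21 in CD104low cells. The populations overlapped, and replicate 1 of CD104low was the highest library. The log2 fold change of -0.34 ± 0.23 (SE) had an interval of -0.87 to 0.18 and did not pass (limma adjusted p = 0.258). Without that library it was -0.13, corrected for length and GC content -0.59 (adjusted p = 0.0844), and after quantile normalization -0.64 (adjusted p = 0.0562).

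Of 7 other keratins in the table, 0 passed as higher and 1 as lower in CD104high cells by limma, against 21.8% and 21.6% of all tested genes, with a median log2 fold change of 0.14. The higher count was 2 without replicate 1 of CD104high, 1 in DESeq2 and 1 on leaving out replicate 3 of CD104low. The 1 that passed as lower was KRT10, the type I keratin of the suprabasal epidermis, with 2091, 2997 and 3617 in CD104high cells and 5307, 4337 and 4818 in CD104low cells. It was 1.70-fold lower in CD104high cells (log2 fold change -0.76 ± 0.18 SE, limma adjusted p = 0.0087), a larger change than in any of the 7 keratins above. The populations did not overlap, and CD104high values were spread widely. Of the 2 keratin pseudogenes, neither KRT87P (0.31, adjusted p = 0.186) nor KRT18P55 (0.67, adjusted p = 0.513) passed.

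**Figure D2:**
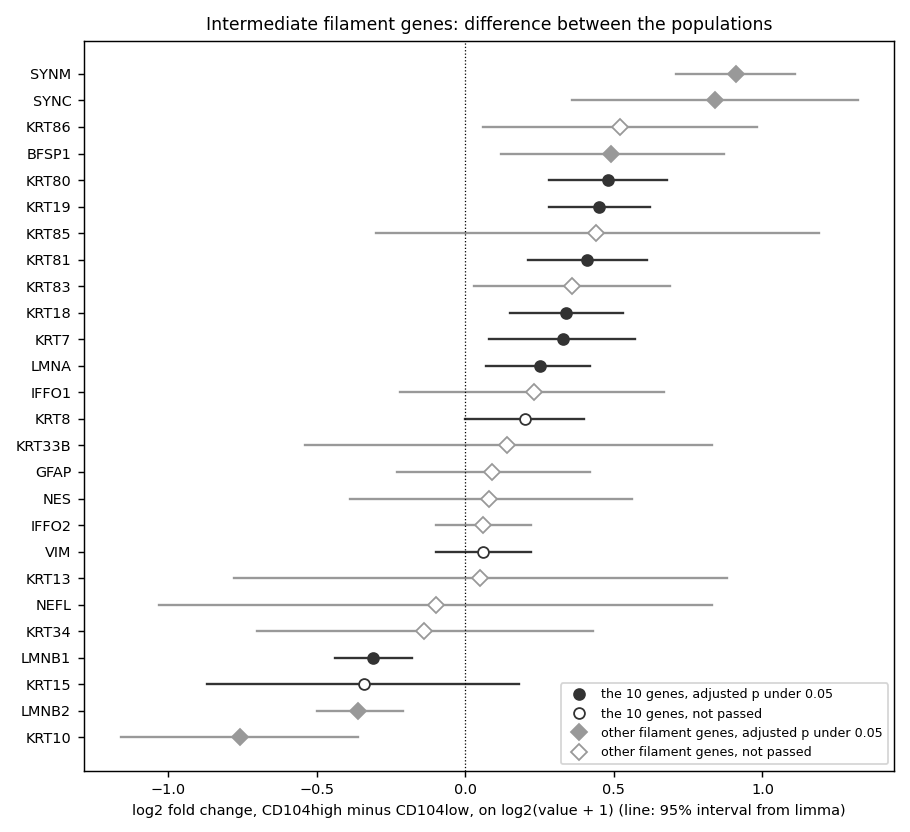
Log2 fold change of the 10 genes (circles) and of the other tested keratin and intermediate filament genes (diamonds), CD104high over CD104low. Lines are 95% confidence intervals from limma (n = 3 each), symbols are filled where the gene passed, and a dotted line marks 0. Among the 10 genes, changes range from -0.34 for KRT15 to 0.48 for KRT80, and the intervals of KRT15 and VIM span 0.

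Levels of different genes were set side by side per kilobase of transcript, using the scaled count divided by the length of the principal transcript. In CD104high cells the order was KRT8 at 35400 ± 4130, KRT7 at 21900 ± 3730, LMNA at 17000 ± 1570, KRT19 at 16500 ± 191, KRT81 at 12600 ± 1340, KRT18 at 11600 ± 1360, VIM at 11400 ± 980, KRT80 at 4020 ± 334, LMNB1 at 3700 ± 54.6 and KRT15 at 34.0 ± 3.34 (SD, n = 3). Neighbours whose libraries overlapped there were LMNA and KRT19, KRT81 and KRT18, and KRT18 and VIM. In CD104low cells the order was KRT8 at 30600 ± 1420, KRT7 at 17300 ± 308, LMNA at 14300 ± 581, KRT19 at 12100 ± 1120, VIM at 10900 ± 207, KRT81 at 9440 ± 586, KRT18 at 9090 ± 214, LMNB1 at 4600 ± 186, KRT80 at 2890 ± 282 and KRT15 at 44.1 ± 12.1 (SD, n = 3). There KRT19 and VIM overlapped, as did KRT81 and KRT18. VIM thus stood below KRT81 and KRT18 by mean in CD104high cells and above both in CD104low cells, and KRT80 and LMNB1 also changed places. The place of VIM depends on the transcript lengths: with the longest transcripts it was at 7800 over all libraries, below KRT81 at 11000 and above KRT18 at 7020, and that order held in both populations. Over all libraries KRT8 ranked 111 and KRT7 181 of 14994 genes by this level, VIM ranked 358, and KRT15 ranked 11870. The lengths assume that the principal transcript is the one expressed, which was not tested.

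**Figure D3:**
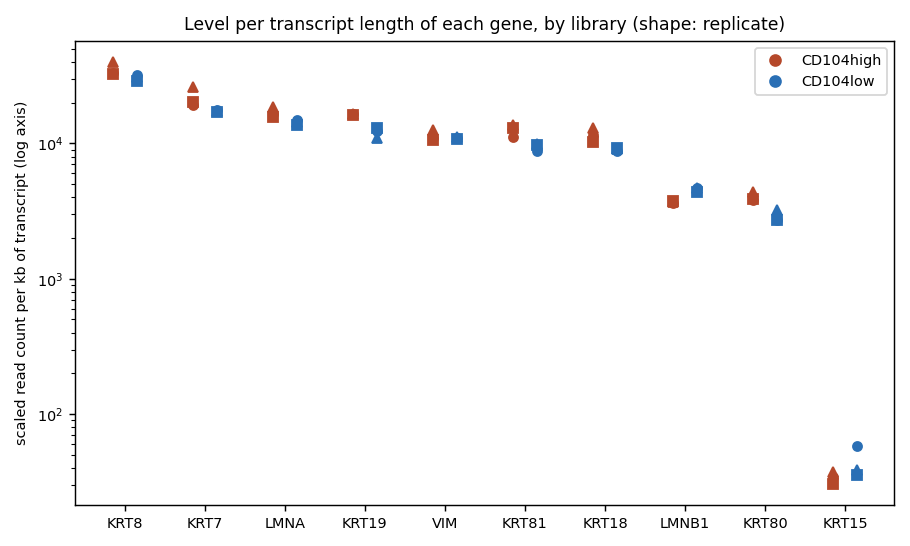
Level of the 10 genes per kilobase of principal transcript on a log axis, CD104high left of CD104low for each gene, points for libraries. KRT8 is the highest in both populations (mean 35400 in CD104high and 30600 in CD104low cells) and KRT15 the lowest (34.0 in CD104high and 44.1 in CD104low cells).

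Summed per kilobase, the 4 type II keratins were at 67500, 69800 and 84400 in CD104high cells and 61000, 58600 and 61300 in CD104low cells. The 3 type I keratins summed to 28000, 26500 and 29600 in CD104high cells and 21200, 22400 and 20000 in CD104low cells. Both sums were higher in every CD104high library than in any CD104low library. The ratio of type II to type I was 2.63 ± 0.221 in CD104high cells and 2.85 ± 0.224 in CD104low cells (SD, n = 3 each), with overlapping libraries. KRT8 contributed 34.7% of the keratin sum in CD104high cells and 37.6% in CD104low cells, with the libraries apart. KRT19 contributed 16.2% in CD104high cells and 14.8% in CD104low cells, with overlapping libraries. For the obligate pair, the ratio of KRT18 to KRT8 in scaled counts was 0.278, 0.254 and 0.261 in CD104high cells and 0.224, 0.258 and 0.239 in CD104low cells. These overlapped, and the log2 difference of 0.14 gave p = 0.2 in an exact two-sided permutation test, where 0.1 is the smallest p that 3 against 3 libraries allow.

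VIM, which forms the filaments of mesenchymal cells, was abundant in both populations and did not differ beyond its spread (chromosome 10, 17228259 to 17237593, plus strand). The libraries held 20553, 19871 and 23329 in CD104high cells and 20426, 19896 and 20647 in CD104low cells. Replicate 3 of CD104high stood above all others, and the other 5 libraries lay close together. The log2 fold change was 0.06, with an interval of -0.10 to 0.22 (limma adjusted p = 0.517). Its upper end lies below the values measured for KRT7, KRT18, KRT19, KRT80 and KRT81. The interval still overlaps those of KRT7 (0.08 to 0.57), KRT18 (0.15 to 0.53) and KRT81 (0.21 to 0.61). Without replicate 3 of CD104high the log2 fold change of VIM was -0.01, and corrected for length and GC content 0.13 (adjusted p = 0.125). The ratio of KRT18 to VIM in scaled counts was 0.791, 0.732 and 0.789 in CD104high cells and 0.616, 0.663 and 0.627 in CD104low cells. The libraries did not overlap, and the log2 difference of 0.28 gave p = 0.1 in an exact two-sided permutation test, the smallest the design allows and above the threshold. Per kilobase, the sum of the 7 keratins was 8.95 ± 0.24 times the VIM level in CD104high cells and 7.49 ± 0.125 times in CD104low cells (SD, n = 3 each). VIM-AS1, a transcript antisense to the start of VIM and chosen here for that position, was at 185.8, 164.2 and 171.3 in CD104high cells and 288.6, 245.7 and 267.3 in CD104low cells (log2 fold change -0.62, limma adjusted p = 0.00778). After the length and GC correction it was at -0.15 and did not pass (adjusted p = 0.427).

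Of 15 other intermediate filament genes, 9 could be tested, and 3 passed as higher and 1 as lower in CD104high cells, against 21.8% and 21.6% of all tested genes, with a median log2 fold change of 0.09. After the length and GC correction 3 were higher and 2 lower, and the median was -0.16. The higher count was 2 without replicate 1 or 2 of CD104high or replicate 1 or 3 of CD104low. Synemin (SYNM), a large filament protein that joins vimentin or desmin filaments to adhesion sites, was at 2281, 2213 and 2202 in CD104high cells and 1114, 1329 and 1134 in CD104low cells. This 1.88-fold rise (log2 fold change 0.91 ± 0.09 SE, limma adjusted p = 0.00029) was larger than that of any of the 10 genes, with tight and well separated populations. Syncoilin (SYNC), a filament protein best known from muscle, had 213.3, 187.1 and 306.2 in CD104high cells and 135.8, 111.2 and 139.3 in CD104low cells (limma adjusted p = 0.0121). BFSP1, the lens protein filensin, had a log2 fold change of 0.49 with overlapping populations (limma adjusted p = 0.0393), and without the intensity trend it did not pass (adjusted p = 0.0726). The 1 that passed as lower was the lamin gene LMNB2.

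The lamins moved in opposite directions by type. LMNA, which encodes lamins A and C by splicing (chromosome 1, 156082573 to 156140089, plus strand), was at 52837, 50027 and 59777 in CD104high cells and 47277, 43627 and 46016 in CD104low cells. All CD104high libraries were higher, with replicate 3 the highest. LMNA was 1.19-fold higher in CD104high cells, with a log2 fold change of 0.25 ± 0.08 (SE, 95% confidence interval 0.07 to 0.42, limma adjusted p = 0.0327). That call rested on the settings: the length and GC correction gave 0.10 (adjusted p = 0.344), and leaving out replicate 1 or 3 of CD104high or any CD104low replicate gave adjusted p from 0.0662 to 0.0754.

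LMNB1, the B-type lamin on chromosome 5 (126776623 to 126837020, plus strand), was at 10494, 10808 and 10645 in CD104high cells and 13595, 12630 and 13513 in CD104low cells. CD104high libraries were within a coefficient of variation of 1.48% and all below the CD104low ones. It was 1.24-fold lower in CD104high cells, with a log2 fold change of -0.31 ± 0.06 (SE, 95% confidence interval -0.44 to -0.18, limma adjusted p = 0.00289), and it passed in each of the 19 alternatives. LMNB2, the second B-type lamin, was also lower, at 36211, 36398 and 33368 in CD104high cells and 46492, 43796 and 45209 in CD104low cells (log2 fold change -0.36 ± 0.06 SE, limma adjusted p = 0.00252). Corrected for length and GC content, it was at -0.60.

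The ratio of LMNA to LMNB1 in scaled counts was 5.03, 4.63 and 5.62 in CD104high cells and 3.48, 3.45 and 3.41 in CD104low cells. CD104low libraries were nearly equal, and the populations did not overlap. The log2 difference was 0.56 with p = 0.1 in an exact two-sided permutation test, the smallest p the design allows, and 0.48 after the length and GC correction. Per kilobase, LMNA against the sum of both B-type lamins was 1.45, 1.36 and 1.73 in CD104high cells and 1.01, 0.994 and 1.00 in CD104low cells.

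The promoters of the 3 lamin genes are shown because A-type and B-type genes moved in opposite directions, though the LMNA call rested on the settings. They are RefSeq sequences on GRCh38.p14, from 250 bases before to 50 bases after the start, 5′ to 3′ on the strand of the gene, with GC boxes (GGGCGG on either strand) in capitals. Where several starts are listed for a gene, the one farthest upstream was used, and other starts were not searched. Whether the main transcript of each gene begins there was not tested. LMNA lies at chr1:156082323-156082622 (plus strand), LMNB1 at chr5:126776373-126776672 (plus strand) and LMNB2 at chr19:2456910-2457209 (minus strand).
LMNA: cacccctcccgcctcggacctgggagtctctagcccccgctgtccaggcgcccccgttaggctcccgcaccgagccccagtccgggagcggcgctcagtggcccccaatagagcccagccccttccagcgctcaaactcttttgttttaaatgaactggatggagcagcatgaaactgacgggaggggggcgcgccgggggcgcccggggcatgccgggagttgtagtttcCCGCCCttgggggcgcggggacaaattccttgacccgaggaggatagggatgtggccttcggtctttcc
LMNB1: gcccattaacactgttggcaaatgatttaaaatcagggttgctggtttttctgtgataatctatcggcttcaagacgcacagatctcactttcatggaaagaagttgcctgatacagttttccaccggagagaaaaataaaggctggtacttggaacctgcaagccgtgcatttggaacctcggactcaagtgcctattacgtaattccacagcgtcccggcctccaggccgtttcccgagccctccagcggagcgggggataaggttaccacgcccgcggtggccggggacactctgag
LMNB2: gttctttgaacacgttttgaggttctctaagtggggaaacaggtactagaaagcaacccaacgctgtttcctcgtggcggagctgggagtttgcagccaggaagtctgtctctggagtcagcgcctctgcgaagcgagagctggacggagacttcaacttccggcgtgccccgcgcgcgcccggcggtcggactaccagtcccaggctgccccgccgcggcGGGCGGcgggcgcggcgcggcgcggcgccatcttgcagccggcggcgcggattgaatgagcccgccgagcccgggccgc
Their GC content was 66.3% in LMNA, 52.0% in LMNB1 and 67.7% in LMNB2, against a median of 58.7% over 35116 promoters. A GC box, found in 45.0% of all promoters, began at base -19 in LMNA and -29 in LMNB2 and was not found in LMNB1. The cAMP response element TGACGTCA (1.85% of promoters) was in none of the 3, its shorter part TGACG (24.6%) was in LMNA at base -74, and the TATA box TATAAA (11.5%) was in none. Both strands were searched for each motif, and TGACG is contained in TGACGTCA. A match is a description of letters and not a binding site, and LMNB1 and LMNB2, which both fell, differ in GC content and in the GC box.

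**Figure D4:**
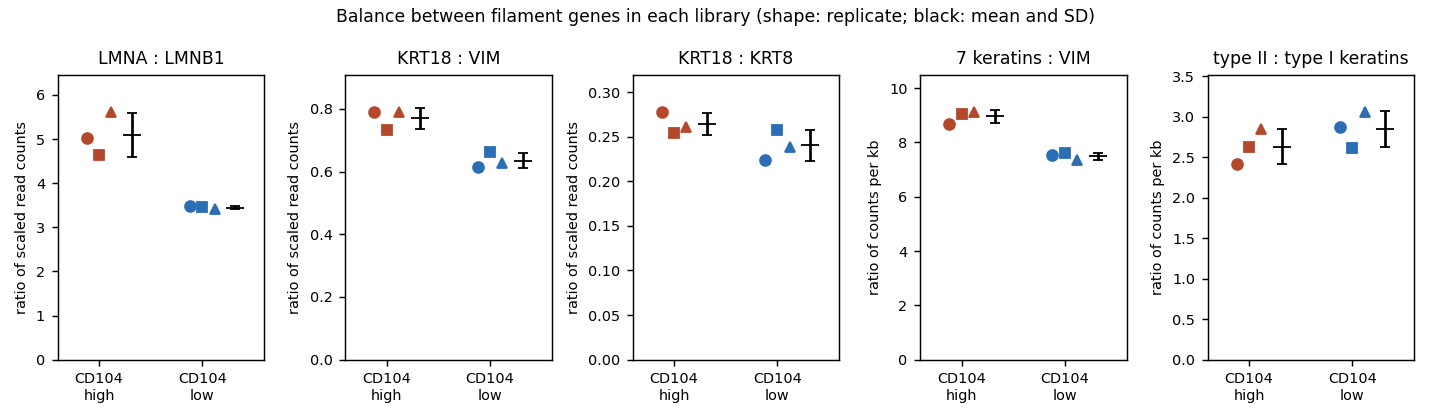
Ratios per library, CD104high left of CD104low, with means and SD (n = 3 each). Those of KRT18 to KRT8, KRT18 to VIM and LMNA to LMNB1 use scaled counts. Those of the keratin sum to VIM and of type II to type I keratins use counts per kilobase. The populations overlap for KRT18 to KRT8 and are apart for KRT18 to VIM (mean 0.771 in CD104high and 0.635 in CD104low cells) and LMNA to LMNB1 (5.09 in CD104high and 3.45 in CD104low cells).

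Lamins A and B are made as precursors whose tail is farnesylated and trimmed. Of 5 enzymes of that maturation, 0 passed as higher and 2 as lower in CD104high cells, against 21.8% and 21.6% of all tested genes, with a median log2 fold change of -0.17. ZMPSTE24, the protease that releases mature lamin A, was at 4568, 4730 and 4753 in CD104high cells and 6150, 5905 and 6020 in CD104low cells (limma adjusted p = 0.0015), but its log2 fold change of -0.36 was -0.09 after the length and GC correction and did not pass (adjusted p = 0.184). RCE1, a protease of the same tail, was at 2361, 2511 and 2433 in CD104high cells and 3203, 2822 and 2896 in CD104low cells (log2 fold change -0.29, limma adjusted p = 0.0131). It did not pass without replicate 1 of CD104high (adjusted p = 0.0565) or of CD104low (adjusted p = 0.0568), which left a count of 1, and without replicate 2 of CD104low the count was 3. FNTB, a subunit of the enzyme that adds the farnesyl group, was at 0.25 and did not pass (adjusted p = 0.121).

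Of 18 partners of the lamina and nuclear envelope, 17 were tested, and 2 passed as higher and 3 as lower in CD104high cells, or 5 in all, against 43.4% of all tested genes. The higher count was 1 without replicate 1 or 2 of CD104high or replicate 1 of CD104low, and with the length and GC correction 1 was higher and 5 were lower. The lamin B receptor LBR was 1.40-fold lower, at 10751, 11368 and 10494 in CD104high cells and 15543, 14716 and 15251 in CD104low cells (limma adjusted p = 0.000562). TMPO, which encodes the lamina-associated polypeptide 2 proteins, and BANF1, which links chromatin to the envelope, had log2 fold changes of -0.42 (limma adjusted p = 0.00553) and -0.34 (adjusted p = 0.00536). SYNE2, the nesprin that joins the nucleus to the cytoskeleton, was at 7377, 6377 and 6144 in CD104high cells and 3183, 4389 and 3413 in CD104low cells (log2 fold change 0.87, limma adjusted p = 0.00103). PCYT1A, an enzyme of phosphatidylcholine synthesis that can bind the nuclear membrane, was at 0.21 (limma adjusted p = 0.0264) and did not pass after the length and GC correction (0.10, adjusted p = 0.206). That correction moved the log2 fold change of LBR from -0.48 to -0.26 and that of SYNE2 from 0.87 to 0.57, and both still passed.

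Plakins, the giant linkers that tie intermediate filaments to junctions, microtubules and actin, were mostly higher in CD104high cells. Of 7 tested, 6 passed as higher and 0 as lower, with a median log2 fold change of 0.65, against 21.8% of all tested genes passing as higher. Periplakin (PPL), a plakin of the cornified envelope that binds keratins and vimentin, was at 788.1, 753.7 and 770.6 in CD104high cells and 197.1, 260.9 and 275.1 in CD104low cells, a 3.18-fold rise (limma adjusted p = 0.000228). MACF1, which links microtubules to actin, was at 32131, 30785 and 30688 in CD104high cells and 14295, 20099 and 17298 in CD104low cells (limma adjusted p = 0.000676). The list has far longer transcripts than most genes, with a median of 15200 bases against 3515 over all tested genes. After correction for length and GC content 4 of the 7 passed as higher and the median was 0.29, with PPL at 1.36 and MACF1 at 0.48. The other 5 are named to complete the list, after their values were seen. Desmoplakin (DSP), the anchor of keratin at desmosomes, was at 0.66 and, corrected, at 0.40. Dystonin (DST), whose epithelial form anchors keratin at hemidesmosomes, was at 0.55 and, corrected, at 0.29. Plectin (PLEC), the linker of keratin to integrin beta-4 in the hemidesmosome, was at 0.65 and, corrected, at 0.15, which did not pass (adjusted p = 0.245). Envoplakin (EVPL), the partner of periplakin, was at 0.37 and, corrected, at 0.04, which did not pass (adjusted p = 0.691). Epiplakin (EPPK1) did not pass (0.24, adjusted p = 0.352), and its value was -0.26 corrected and -0.01 after quantile normalization.

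At the desmosome, the junction to which keratins are attached, 7 of 13 listed genes were tested, and 1 passed as higher and 0 as lower, against 21.8% and 21.6% of all tested genes, with a median log2 fold change of -0.08. The lower count was 1 with the length and GC correction and 1 without replicate 2 of CD104high. The 1 that passed as higher was JUP, which encodes plakoglobin of the inner plaque (3.53-fold, limma adjusted p = 0.000455). JUP was at 1956, 2046 and 1810 in CD104high cells and 448.5, 802.8 and 457.1 in CD104low cells, with no overlap. Its plaque relatives PKP3 (0.17, adjusted p = 0.198) and PKP4 (-0.13, adjusted p = 0.221) and the membrane protein PERP (-0.09, adjusted p = 0.291) did not pass, although PKP4 passed as lower after the length and GC correction (-0.25, adjusted p = 0.0379).

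Of 18 proteins that bind keratins or take part in their turnover, 1 passed as higher and 4 as lower in CD104high cells, against 21.8% and 21.6% of all tested genes, with a median log2 fold change of -0.14. FAM83H, which brings casein kinase 1 to keratin filaments, rose 1.67-fold (log2 fold change 0.74, limma adjusted p = 0.00396). Those that passed as lower included the chaperone HSPA8 (log2 fold change -0.50, limma adjusted p = 0.00124), the 14-3-3 protein YWHAE (-0.24, adjusted p = 0.0133) and the desmosome-associated protein pinin, PNN (-0.30, adjusted p = 0.0358). This lower count was 1 without replicate 1 of CD104low, 2 without replicate 1 of CD104high, and 7 with TMM scaling. After the length and GC correction neither YWHAE (-0.09, adjusted p = 0.212) nor PNN (-0.15, adjusted p = 0.251) passed. PNN also did not pass without the trend (adjusted p = 0.09) or after quantile normalization (0.0985), and both genes lost the call on leaving out some single libraries. The related 14-3-3 gene YWHAG was at 0.13 and did not pass (adjusted p = 0.169).

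Of 16 transcription factors known from epithelial keratin genes, 12 were tested, and 5 passed as higher and 2 as lower in CD104high cells, against 21.8% and 21.6% of all tested genes, with a median log2 fold change of 0.28. EHF, an ETS factor of epithelia, was at 986.7, 878.1 and 1417 in CD104high cells and 242.4, 275.0 and 377.3 in CD104low cells, a 3.65-fold rise (limma adjusted p = 0.000464). TFAP2C, which encodes AP-2 gamma of the mammary epithelium, was at 204.1, 129.7 and 369.1 in CD104high cells and 75.43, 82.91 and 87.60 in CD104low cells (limma adjusted p = 0.0107). Its CD104high libraries were widely spread and all above the CD104low ones. The ETS factor ELF3 (log2 fold change 1.87, limma adjusted p = 0.0244), the ubiquitous factor SP1 (0.30, adjusted p = 0.00809) and KLF5 (0.25, adjusted p = 0.0479) completed the 5, and SP3 (-0.31, adjusted p = 0.00664) and CEBPB (-0.70, adjusted p = 0.0367) were the 2. KLF5 did not pass with TMM scaling (adjusted p = 0.0562), in edgeR (0.0591), without the trend (0.0877) or without replicate 2 or 3 of CD104high or 1 or 3 of CD104low (0.094 to 0.163). ELF3 was low, at 75.06, 41.48 and 106.5 in CD104high cells and 29.16, 7.077 and 28.08 in CD104low cells. Replicate 2 of CD104low was below the filter value of 10. ELF3 did not pass after quantile normalization (adjusted p = 0.0512), without the trend (0.0582) or without replicate 1 or 3 of CD104high (0.0755 and 0.0679). The higher count was 3 without replicate 3 of CD104high, and the lower count was 1 on leaving out any library other than replicate 3 of CD104high.

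**Figure D5:**
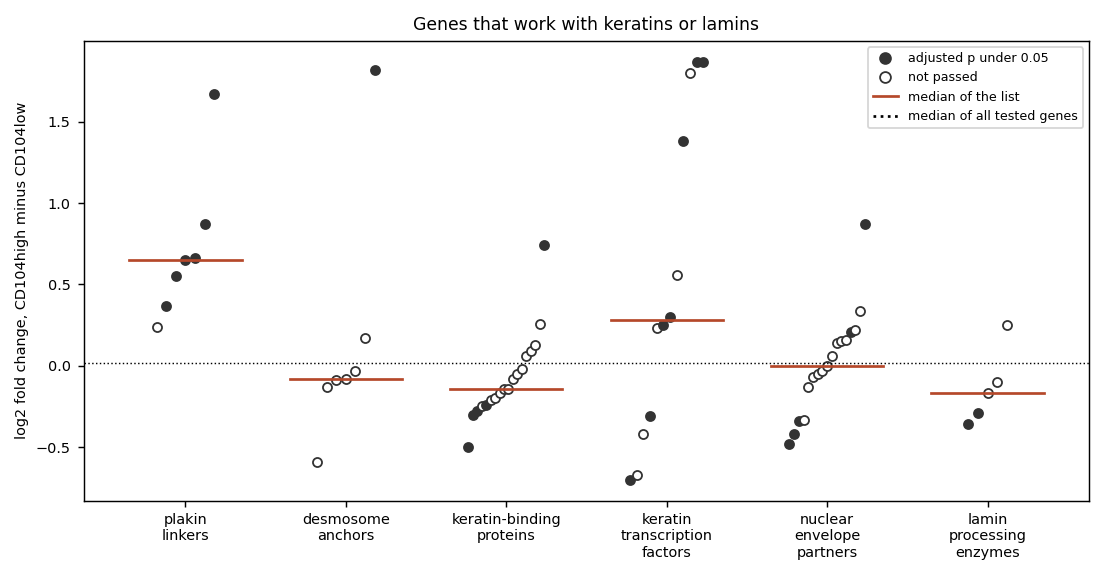
Log2 fold change of each tested gene of the related lists, CD104high over CD104low, filled where limma passed at 0.05, with the median of each list. Plakin linkers have a median of 0.65 (0.29 after the length and GC correction), and the enzymes that process lamins have a median of -0.17.

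A single library shaped several of these values. Within CD104high cells, 9 of the 10 genes were highest in replicate 3, against 43.8% of all tested genes. LMNB1 was the exception. Leaving that library out moved the log2 fold change to 0.25 for KRT18, 0.41 for KRT80, 0.35 for KRT81 and 0.17 for LMNA, and left KRT19 at 0.44 and LMNB1 at -0.31. What set replicate 3 apart was not tested.

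Genes with the pattern most like that of each of the 10 were found by Pearson's r of log2(value + 1) over the 6 libraries among 11635 genes, as a description without a test, since with 6 points from 2 populations many genes come close. For the keratins they were MARCKS (r = 0.994) for KRT8, LUM (0.992) for KRT7, MAL2 (0.996) for KRT81, COL1A2 (0.999) for KRT80, TFAP2C (0.996) for KRT18, OPA3 (0.999) for KRT19 and SBF2-AS1 (0.997) for KRT15. The closest were ABHD12 (0.993) for VIM, SRD5A1 (0.998) for LMNA and BMI1 (0.999) for LMNB1.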

How the data were processed

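RNA sequencing covered 6 libraries in 2 sorted populations. FastQC, Salmon 1.3.0, DESeq2 and the build GRCh38 (hg38) are named in the submitters' processing notes. The sources used here give neither the annotation release nor the strand setting. The authors deposited a scaled read signal per gene and library, a log2 fold change with its standard error, and p-values with adjusted p-values, per the file headers. The sources used here do not say whether other libraries entered their fit. Each library's values were whole multiples of 1 step (within 0.01 for 100% of values), so whole reads could be recovered, which are rounded estimates if Salmon made them. Genes that the table does not list were not analysed.

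Populations were compared with limma 3.58.1 (R 4.3.3, intensity trend) on log2(value + 1), with population as the only term, for genes reaching a value of 10 in 3 or more libraries. Fold changes on this scale understate low genes. The labels number biological replicates and name no culture or day, so the p-values reflect only the spread among these 6 libraries. Replicates of a population differed beyond sampling noise (chi-square per degree of freedom 13.46 to 46.32). Count tests on recovered reads (edgeR 4.0.16, DESeq2 1.42.0), other scalings, filters and pseudocounts, a replicate block, a length and GC correction and leaving out each library were alternatives. The script was tested on simulated data. Positions, lengths and shared 31-base words came from GENCODE 29, matched for 99.8% of genes, with the shortest principal transcript for levels and the longest for the correction. Promoters came from RefSeq.

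The members and gene lists were chosen with earlier results of these data known. The rule named all 10 genes, ITGB4, KMT2C, and of each list the 2 genes with the smallest p in each direction. Genes that spell out a small count, complete the plakin list or overlap a member were named after their values were seen. The value of 1 listed gene is not reported here.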

Additional observations from a re-analysis of the deposited data

How the results depend on the processing

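Across 19 alternatives for each gene, KRT19, KRT80, KRT81 and LMNB1 kept their direction and call, with log2 fold changes of 0.38 to 0.51, 0.31 to 0.56, 0.35 to 0.50 and -0.38 to -0.27. KRT18 lost its call in 1, KRT7 in 4 and LMNA in 8 alternatives. KRT8 passed under 3, the replicate block (adjusted p = 0.0291), quantile normalization (0.0103) and division by the library total (0.0359). VIM turned to -0.01 without replicate 3 of CD104high, was at 0.11 without replicate 2, and at 0.13 with the block and the length and GC correction passed (0.0497), as did KRT15 at -0.59 (0.0344) and PKP4 at -0.25 (0.00103). EPPK1 turned to -0.26 with the length and GC correction, with or without the block, and to -0.01 after quantile normalization. Without replicate 1 of CD104low 4101 genes passed, 2092 higher and 2009 lower, and of the 10 genes 4, of them 3 higher, namely KRT19, KRT80, KRT81 and LMNB1. Leaving out 1 library in turn gave 4101 to 6395 genes called, 2092 to 3198 higher and 2009 to 3197 lower, and 4 to 7 of the 10 genes, 3 to 6 higher and 1 to 1 lower. Deviations of same-numbered libraries correlated at 0.084, 0.359 and 0.324, and those of differently numbered libraries at -0.318 to 0.013. Each deviation was taken from the mean of its population, so correlations above 0 in some pairs go with correlations below 0 in others. Each library correlated best with its own number. The labels do not say whether the numbers pair the samples, so the main test, which used no block, may leave out a pairing. With the replicate block 7876 genes passed, of the 10 genes 7 were higher, KRT86 (0.000719) and KRT83 (0.0324) passed, and the lower count of keratin-binding proteins was 8. With the block and the length and GC correction 7718 genes passed, and 2 of the 10 genes were lower. The log2 differences of the ratios were 0.09 to 0.19 for KRT18 to KRT8, 0.49 to 0.63 for LMNA to LMNB1 and 0.26 to 0.32 for KRT18 to VIM without 1 library in turn. The other tests and settings called 5476 to 6613 genes. The cause of these changes was not tested. With 3 libraries a population, an exact test of a single value cannot reach 0.05. Values of KRT8, KRT18 and KRT81 depend on how reads were divided between copies.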
